A study of Mus musculus with 26 samples.

Results

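Clearance of dying cells by phagocytes was followed through 10 genes in mouse microglia and cortex: the TAM receptors Mertk, Axl and Tyro3, their ligands Gas6 and Pros1, the bridging protein Mfge8 with the integrin subunits Itgav and Itgb5, and the receptors Cd36 and Timd4. The genes were chosen by symbol as a named pathway, and all 10 were among the 31053 genes listed for microglia and replicate 1 nuclei. Nuclei were analyzed on the genes also listed for replicate 2 nuclei, which included all 10. Microglia were sorted from the somatosensory cortex of wild-type C57Bl/6N mice, of both sexes, as Cd11b-positive, Cx3cr1-positive and Cd45-low cells at E13.5, E15.5 and P14, after their dams had received saline or Poly(I:C), which imitates a viral infection, at E12.5. Poly(I:C) groups are called MIA, for maternal immune activation. E13.5 and E15.5 had 3 saline and 3 MIA libraries each, from pooled embryos. P14 had 4 saline and 2 MIA libraries, where saline replicate 3 was a female and a male library (3F and 3M). Libraries 3F and 3M were counted separately in means, SDs and tests, and the labels do not say whether they share a dam. Nuclei came from the E15.5 cortex of male wild-type and Csf1r-null littermates from Csf1r+/- crosses on the same strain, after saline or MIA, with 2 libraries in each of the 4 groups. Csf1r-null mice lack the receptor that microglia need to survive. Nuclei came from fewer dams than libraries, so libraries may share a dam, and p-values then cover the spread between libraries, part of which may be technical.

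TAM receptors are receptor tyrosine kinases through which phagocytes engulf apoptotic cells and restrain inflammatory signaling. Gas6 and Pros1 bind phosphatidylserine, the lipid that a dying cell exposes, through a vitamin K-dependent domain, and bind a TAM receptor with the other end. Gas6 activates all TAM receptors, and Pros1 acts mainly on Mertk and Tyro3. Mfge8 makes a similar bridge from phosphatidylserine to integrins that contain the αv subunit (Itgav), such as αvβ5 (Itgav with Itgb5). Cd36 is a scavenger receptor for oxidized lipids and apoptotic cells, and Timd4 encodes TIM-4, a phosphatidylserine receptor of tissue-resident macrophages.

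Levels are given as CPM, the unique molecular identifiers (UMIs) of a gene scaled to the same total in every library, summed over the microglia of a library. The chemistry reads the 3′ ends of transcripts and gives no level per transcript length, so each gene was compared only with itself. Of 63559 sorted cells kept, 53856 were counted as microglia, between 234 and 5156 per library. Depth before that step was between 6160925 and 105751888 UMIs per library at E13.5, between 16590964 and 77548598 at E15.5 and between 22187944 and 32527293 at P14. E13.5 MIA replicates 1 and 2 had 234 and 256 microglia. All 12 microglial markers were detected in every microglia library, with summed levels of 24590 to 27600 CPM at E13.5, 35400 to 48640 CPM at E15.5 and 60840 to 70410 CPM at P14. In 21 of 153 pairs of microglia libraries, at least 30 cell barcodes were shared and at least 10 times as many as chance would give. The most was 258 barcodes, against 0.26 due by chance, in E13.5 MIA replicate 2 and P14 saline replicate 3F. Of each shared barcode the copy with more UMIs was kept, and results that differed with all copies kept are given below.

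All 10 genes had a promoter entry in RefSeq (GRCm38.p6). The 250 bases before the start of Mertk and of Axl are shown because these receptors followed opposite courses with age. Those of Itgav and Pros1 are shown because they alone among the 10 held a match to 1 of 3 motifs searched on both strands, printed in capitals. The motifs were GAGGAAGT, a site of the PU.1 type, found in 2.44% of 32851 promoters, the core of the interferon-stimulated response element, found in 2.98%, and TTCNNNGAA, the gamma-activated site, found in 7.02%. Itgav held the first, on the strand opposite to the gene, and Pros1 the last. Mertk lies at chr2:128698956-128802894 (plus strand), Axl at chr7:25757273-25788705 (minus strand), Itgav at chr2:83724397-83806916 (plus strand) and Pros1 at chr16:62854307-62929346 (plus strand) in GENCODE vM21 on GRCm38. The windows printed are chr2:128698665-128698914, chr7:25788734-25788983 (minus strand), chr2:83724147-83724396 and chr16:62854057-62854306, each read 5′ to 3′ on the strand of the gene.
Mertk: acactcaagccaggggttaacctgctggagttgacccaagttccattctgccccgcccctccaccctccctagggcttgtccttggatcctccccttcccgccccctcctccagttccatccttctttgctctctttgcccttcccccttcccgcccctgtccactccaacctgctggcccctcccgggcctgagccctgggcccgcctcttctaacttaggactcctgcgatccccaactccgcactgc
Axl: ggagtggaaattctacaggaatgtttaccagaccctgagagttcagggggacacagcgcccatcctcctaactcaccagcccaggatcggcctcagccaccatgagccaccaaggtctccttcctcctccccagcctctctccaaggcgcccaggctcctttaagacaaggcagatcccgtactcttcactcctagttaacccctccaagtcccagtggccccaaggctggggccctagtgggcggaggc
Itgav: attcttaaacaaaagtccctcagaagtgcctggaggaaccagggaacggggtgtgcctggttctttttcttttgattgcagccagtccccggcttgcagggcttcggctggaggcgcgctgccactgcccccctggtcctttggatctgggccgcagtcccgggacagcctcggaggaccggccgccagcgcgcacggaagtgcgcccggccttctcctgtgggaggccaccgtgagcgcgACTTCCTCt
Pros1: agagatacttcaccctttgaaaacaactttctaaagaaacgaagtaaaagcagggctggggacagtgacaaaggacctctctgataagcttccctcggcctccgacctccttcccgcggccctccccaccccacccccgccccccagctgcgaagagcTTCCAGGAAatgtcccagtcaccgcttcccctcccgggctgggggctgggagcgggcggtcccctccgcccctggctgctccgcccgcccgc

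Mertk rose with age in microglia. In saline libraries at E13.5 it stood at 76.5, 77.3 and 74.4 CPM, and in MIA libraries at 77.8, 90.9 and 64.5 CPM. At E15.5 the saline libraries held 63.5, 158 and 173 CPM and the MIA libraries 98.5, 145 and 204 CPM. At P14 the saline libraries (1, 2, 3F and 3M) held 287, 341, 331 and 378 CPM and the MIA libraries 312 and 328 CPM. Every P14 library was above every embryonic one, whereas E15.5 saline replicate 1 lay below all 3 saline libraries of E13.5. The saline mean was 76.1 ± 1.52 CPM (SD, n = 3) at E13.5, 131 ± 59.3 (n = 3) at E15.5 and 334 ± 37.2 (n = 4) at P14. From E15.5 to P14 Mertk rose in saline (log2 fold change 1.10, SE 0.25, adjusted p = 0.00153) and in MIA microglia (0.88, SE 0.29, adjusted p = 0.0236) in edgeR's quasi-likelihood test, adjusted over 14101 genes. From E13.5 to E15.5 the changes were 0.78 (SE 0.26, adjusted p = 0.0394) in saline and 0.98 (SE 0.26, adjusted p = 0.0111) in MIA microglia. The saline call was lost when any 1 of the 3 E13.5 saline libraries or E15.5 saline replicate 2 or 3 was left out, with adjusted p between 0.0835 and 0.159, and the later MIA call when E15.5 MIA replicate 1 or 2 or either P14 MIA library was, with adjusted p between 0.0508 and 0.103.

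Axl, a TAM receptor that interferon induces in many cells, went the other way. At E13.5 its saline libraries held 51.5, 39.5 and 28.4 CPM and its MIA libraries 53.7, 57.4 and 28.9 CPM. At E15.5 the values were 23.1, 32.1 and 22.6 CPM after saline and 17.1, 32.3 and 25.1 CPM after MIA. At P14 they were 1.10, 2.66, 1.34 and 1.49 CPM after saline and 1.26 and 2.00 CPM after MIA, all far below the embryonic libraries. From E15.5 to P14 Axl fell by 4.22 on the log2 scale (SE 0.31, adjusted p = 1.73e-08) in saline and by 4.14 (SE 0.41, adjusted p = 1.12e-06) in MIA microglia. With shared barcodes kept, the P14 libraries lay between 1.33 and 4.17 CPM and the calls held. From E13.5 to E15.5 Axl fell by 0.84 (SE 0.29, adjusted p = 0.0377) in MIA microglia and had a log2 difference of -0.61 (SE 0.28) that did not pass in saline (adjusted p = 0.128). With the replicate number as a block the saline difference passed, as given below. The MIA call was lost with shared barcodes kept (adjusted p = 0.0616) and without E13.5 MIA replicate 1 or 2 or E15.5 MIA replicate 1 or 3 (adjusted p between 0.0865 and 0.133). When each cell was thinned to 2000 UMIs, the cells with an Axl UMI were between 5.27% and 10.6% at E13.5 and between 0.189% and 0.463% at P14.

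Tyro3 was near 0 in microglia, at between 0.0456 and 0.601 CPM in the 18 libraries, with 59 UMIs at E13.5, 35 at E15.5 and 47 at P14. It passed no stage comparison, except from E15.5 to P14 in MIA microglia when E15.5 MIA replicate 2 was left out (2.57, adjusted p = 0.0396, against 1.30 with it).

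**Figure D1:**
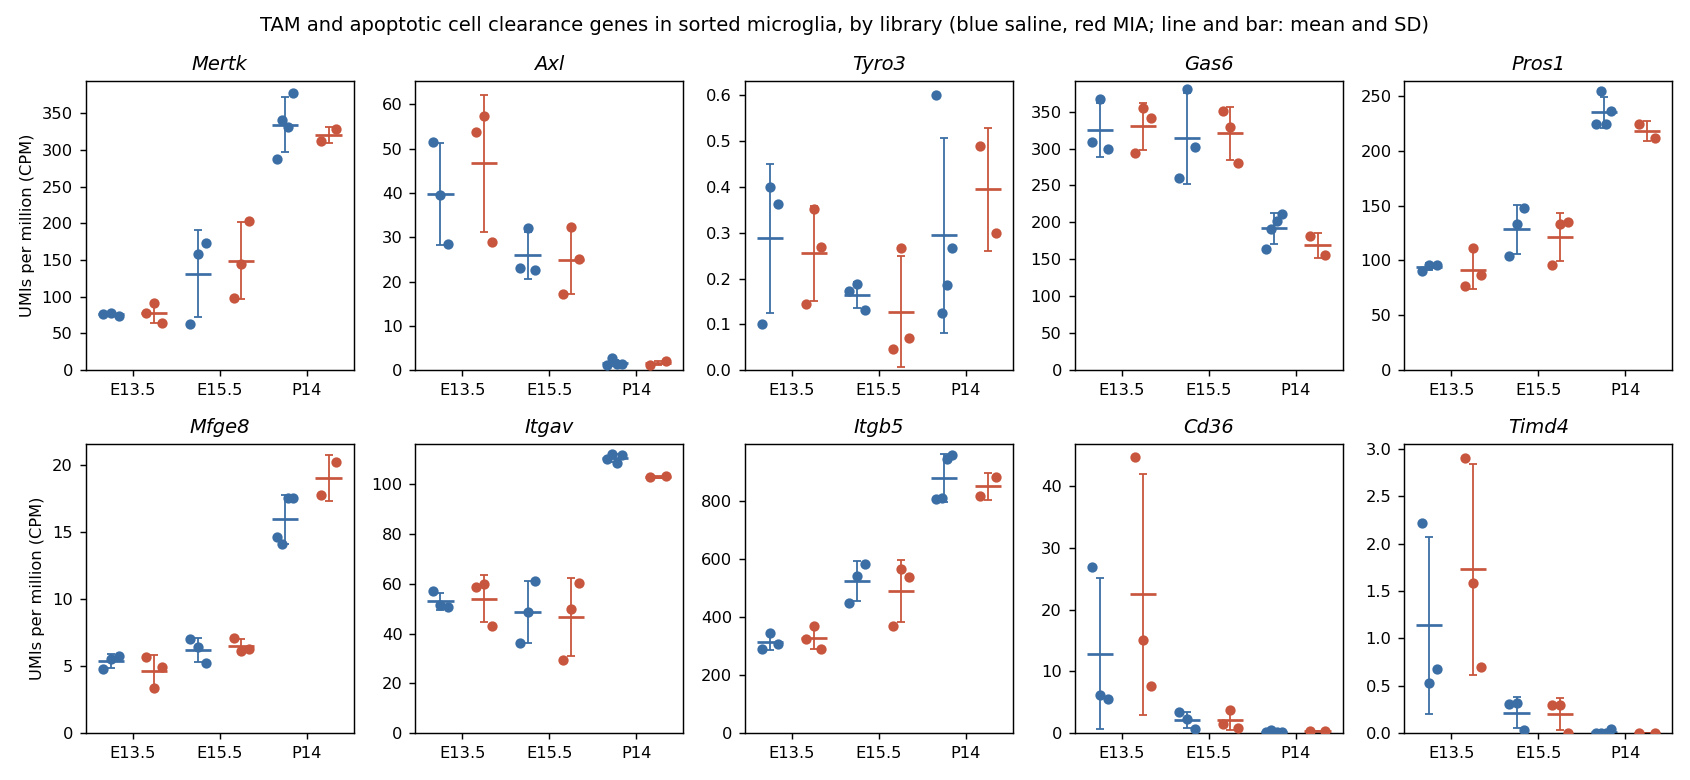
Level of each gene in the 18 microglia libraries, in CPM, by stage (blue saline, red MIA; points are libraries, lines and bars the mean and SD). Mertk, Pros1, Mfge8, Itgav and Itgb5 were highest at P14, where Axl, Gas6, Cd36 and Timd4 were lowest, and no gene passed between saline and MIA at any stage.

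The ligands differed in their course. Gas6 held near its level from E13.5, with a saline mean of 325 ± 36.5 CPM (SD, n = 3), to E15.5, with 314 ± 61.1 (n = 3), and stood at 192 ± 20.9 (n = 4) at P14. The 12 embryonic libraries lay between 259 and 380 CPM and the 6 P14 libraries between 157 and 212 CPM, with no overlap. From E15.5 to P14 Gas6 fell by 0.97 on the log2 scale (SE 0.15, adjusted p = 3.89e-05) in saline and by 1.17 (SE 0.18, adjusted p = 0.000112) in MIA microglia. Pros1 rose instead, from between 76.5 and 112 CPM at E13.5 to between 96.1 and 148 CPM at E15.5 and between 211 and 255 CPM at P14. Its increases from E15.5 to P14 were 0.62 (SE 0.13, adjusted p = 0.00105) in saline and 0.61 (SE 0.16, adjusted p = 0.00583) in MIA microglia. Those from E13.5 to E15.5 were 0.44 in both (SE 0.14, adjusted p = 0.0339 in saline and 0.0275 in MIA), and neither passed when all cells were counted (adjusted p = 0.126 and 0.185) or with 1 library left out in several cases: E13.5 saline replicate 1, 2 or 3 or E15.5 saline replicate 2 or 3 for the first (adjusted p between 0.0511 and 0.110), and E13.5 MIA replicate 1 or 3 or E15.5 MIA replicate 2 or 3 for the second (0.0515 to 0.102). The later MIA call of Pros1 was lost without P14 MIA replicate 1 (adjusted p = 0.0582).

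Mfge8 and both integrin subunits rose to P14. Mfge8 was between 3.34 and 5.74 CPM at E13.5, between 5.19 and 7.05 CPM at E15.5 and between 14.1 and 20.2 CPM at P14. Its rise from E15.5 to P14 was 1.10 (SE 0.17, adjusted p = 4.16e-05) in saline and 1.30 (SE 0.19, adjusted p = 6.71e-05) in MIA microglia. Astrocyte markers rose over the same step: the 5 markers of the list summed to between 2.37 and 4.06 CPM at E15.5 and to between 11.6 and 19.1 CPM at P14. At E13.5 their sum was between 3.99 and 10.3 CPM, so they did not rise from E13.5 to E15.5. In the 188 cells set aside at P14 as led by the astrocyte genes Mt3, Slc1a2 and Aldoc, Mfge8 stood at 123 CPM, and the part of astrocyte RNA in the microglial rise was not tested. Itgav held 43.1 to 60.0 CPM at E13.5, 29.4 to 60.9 CPM at E15.5 and 103 to 112 CPM at P14, and rose to P14 by 0.94 (SE 0.18, adjusted p = 0.000318) in saline and by 0.93 (SE 0.20, adjusted p = 0.00194) in MIA microglia. Itgb5 rose at each step, from 314 ± 27.6 CPM (SD, n = 3) in saline E13.5 libraries to 524 ± 68.0 (n = 3) at E15.5 and 879 ± 83.7 (n = 4) at P14. Its change from E13.5 to E15.5, 0.74 (SE 0.14, adjusted p = 0.00142) in saline and 0.62 (SE 0.14, adjusted p = 0.0032) in MIA microglia, passed in both treatments with each library left out in turn and under each other setting run, which held for no other of the 10 genes at this step. The later MIA call of Itgb5 was lost without P14 MIA replicate 2 (0.53, adjusted p = 0.0669).

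Cd36 and Timd4 were lost with age. In saline libraries Cd36 stood at 26.9, 6.12 and 5.53 CPM at E13.5 and at 3.37, 2.23 and 0.711 CPM at E15.5. In MIA libraries it stood at 44.7, 15.1 and 7.63 CPM at E13.5 and at 1.51, 3.79 and 0.848 CPM at E15.5. The stages did not overlap, and replicate 1 was the highest E13.5 library in both treatments. From E13.5 to E15.5 Cd36 fell by 2.52 (SE 0.71, adjusted p = 0.0168) in saline and by 3.29 (SE 0.75, adjusted p = 0.00375) in MIA microglia. Without E13.5 saline replicate 1 the saline change was -1.42 and did not pass (adjusted p = 0.137), and it also failed without E15.5 saline replicate 2 or 3 (adjusted p = 0.0534 and 0.0692). At P14 Cd36 was at 0.0926 to 0.416 CPM, or 38 UMIs in 6 libraries (0.345 to 0.937 CPM and 91 UMIs with shared barcodes kept), and fell from E15.5 by 3.63 (SE 0.91, adjusted p = 0.00321) in saline and by 2.85 (SE 1.07, adjusted p = 0.0454) in MIA microglia. The MIA call was lost with shared barcodes kept (-2.12, adjusted p = 0.0818) and without E15.5 MIA replicate 1 or 2 or either P14 MIA library (adjusted p between 0.0539 and 0.188). Timd4 was at 0.523 to 2.91 CPM at E13.5 (185 UMIs) and at 0 to 0.314 CPM at E15.5 (55 UMIs), and fell between these stages by 2.29 (SE 0.79, adjusted p = 0.0459) in saline and by 2.71 (SE 0.85, adjusted p = 0.0257) in MIA microglia. The saline call was lost with shared barcodes kept (adjusted p = 0.0529) and without E13.5 saline replicate 1 or 3 or E15.5 saline replicate 2 or 3 (adjusted p between 0.0608 and 0.222), and the MIA call without E13.5 MIA replicate 1 or E15.5 MIA replicate 2 or 3 (0.0553 to 0.115). At P14 1 UMI was found, in saline replicate 3M, where 2 were found with shared barcodes kept. That is 0.0109 CPM over the P14 saline group, with an exact Poisson interval of 0.000276 to 0.0607 CPM that covers counting error only. The E15.5 level was 21.1 times as high, with an interval of 3.78 to 831 that covers the counting error of the P14 UMI alone. In MIA microglia, with 0 UMIs of Timd4 at P14, the E15.5 level was 4.56 times a floor of 3 UMIs over the P14 group. It was 3.71 times the upper Poisson limit, the rule used for saline.

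In all, 5 of the 10 genes passed from E13.5 to E15.5 in saline microglia, where 24.6% of 14101 genes tested passed, 3 higher (13.6% of genes) and 2 lower (10.9%). In MIA microglia 6 passed (29.7% of genes), 3 higher (15.1%) and 3 lower (14.6%). From E15.5 to P14, 9 passed in saline (50.7% of genes), 5 higher (24.6%) and 4 lower (26.1%), and 9 in MIA microglia (36.3% of genes), 5 higher (17.7%) and 4 lower (18.6%). Both counts of 9 include Timd4, which had 1 UMI at P14 in saline and 0 in MIA microglia. Tyro3 did not pass at either step. With 1 library left out, the count of 5 at the earlier saline step fell to 1 without E13.5 saline replicate 1, E15.5 saline replicate 2 or E15.5 saline replicate 3, to 2 without E13.5 saline replicate 3 and to 3 without E13.5 saline replicate 2. The 6 in MIA microglia became 3 without E15.5 MIA replicate 3, and the 9 at the later MIA step became 5 without either P14 MIA library. The median log2 change of the 10 genes was -0.09 in saline and -0.09 in MIA at the earlier step, where the median of all genes was 0.04 in both, and 0.52 and 0.59 at the later one, where it was 0.02 and 0.00. The labels give no sequencing batch for these libraries, and its part in the stage differences was not tested. Beside the stages, dividing clusters fell from between 33.3% and 45.4% of microglia at E13.5 to between 5.65% and 30.1% at E15.5. At P14 they made up between 0.246% and 1.11%. These shares leave out embryonic clusters with genes of DNA replication such as Hells among their leading genes (3631, 1652 and 738 cells), which were counted as unnamed. Cells led by homeostatic genes, the class with the most Mertk and Itgb5, went from between 0.622% and 2.67% at E13.5 to between 9.05% and 63.0% at E15.5. P14 was clustered on its own, and no cluster there met the rule for this class. Its 7 markers summed to between 20620 and 22730 CPM at P14, against 5073 to 7874 CPM at E15.5. The Ms4a7-positive or border macrophage clusters, which held the most Cd36 and Timd4 and in one of which Axl was at 96.8 CPM, made up between 3.81% and 17.96% at E13.5 and between 1.48% and 6.17% at E15.5, and no cluster met their rule at P14. The part of these shifts in the changes was not tested. E15.5 saline replicate 1 had the 30.1%, against 5.65% to 7.72% in the other E15.5 libraries, and E15.5 MIA replicate 1 had the 9.05% and the highest share of Spp1-high cells, 21.1%. With the dividing clusters and those of Ms4a7-positive or border macrophages left out, 3 genes passed from E13.5 to E15.5 in saline microglia, and the calls of Mertk (0.62, adjusted p = 0.0571) and Timd4 (-1.80, adjusted p = 0.131) were lost. The unnamed clusters with Hells among their leading genes stayed in this fit.

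**Figure D2:**
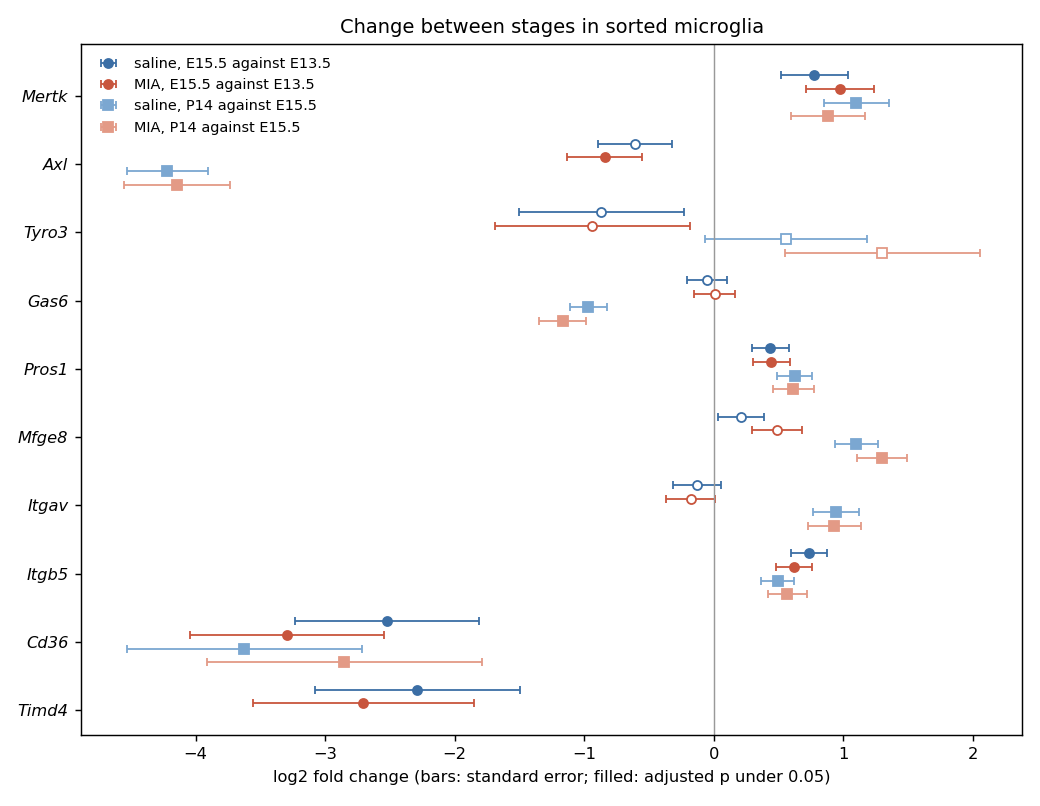
Log2 fold change of each gene between stages in saline and MIA microglia (points with SE; filled, adjusted p under 0.05; circles E15.5 against E13.5, squares P14 against E15.5). Axl fell by 4.22 and 4.14 from E15.5 to P14 while Mertk rose at each step; Timd4 at P14 is left out because 1 UMI was found there.

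The classes of microglia differed in these genes, which took no part in the clustering. The values are levels pooled over libraries and carry no test, and a class was compared with another in the libraries that held at least 20 cells of both. Among the classes counted as microglia in the embryo, cells led by homeostatic genes (6992 cells) had the most Mertk, at 184 CPM, and the most Itgb5, at 655 CPM. Mertk was lower in dividing cells, at 55.9 CPM, in all 9 libraries compared, and so was Itgb5, at 334 CPM. Itgb5 in the cluster led by Ms4a7 exceeded the homeostatic level in 1 of 8 libraries. Of the 6992 homeostatic cells 6886 were from E15.5, and at E15.5 alone they held 185 CPM of Mertk and 658 CPM of Itgb5, against 55.2 and 418 CPM in dividing cells and at most 125 and 464 CPM in the other classes. The cells with the most Axl were interferon-responsive (399 cells, 98.2 CPM) and a cluster led by Ms4a7, Ms4a6c and Cybb (1272 cells, 96.8 CPM). Axl was above the homeostatic level of 23.1 CPM in 5 of 5 and 8 of 8 libraries, respectively. Gas6 was highest in a cluster led by Pf4, Lyve1 and F13a1 (165 cells, 803 CPM) and next in Spp1-high cells (1855 cells, 576 CPM), which exceeded the homeostatic level of 313 CPM in 7 of 7 libraries. Pf4, Lyve1 and F13a1 mark macrophages at the borders of the brain, and the meninges had been removed and Cd45-low cells sorted.

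Cd36 and Timd4 stood out in that same cluster, with 215 CPM and 22.3 CPM, against 0.322 CPM and 0.0901 CPM in homeostatic cells. These levels pool the stages, and at E15.5 alone the cluster (56 cells) held 115 CPM of Cd36 and 22.6 CPM of Timd4, against 0.302 CPM and 0.0918 CPM in homeostatic cells. The cluster made up 7.995% of microglia in E13.5 saline replicate 1 and 6.84% in E13.5 MIA replicate 1, the libraries with the most Cd36, and between 0.0519% and 2.34% in the other E13.5 libraries. Without this cluster, the Ms4a7 cluster and the dividing clusters, Cd36 was between 2.11 and 6.19 CPM at E13.5 and between 0.446 and 2.09 CPM at E15.5. These clusters were left out together, so the part of this one cluster in the high Cd36 of replicate 1 was not tested. At P14 no cluster met the rule for border macrophages. The nearest, 2253 cells led by Ccr1, Mrc1 and Tmem52, had 2 of their markers, under the 3 required, and was counted with the unnamed microglia. Axl there was 8.31 CPM in Ccl3- and Ccl4-high cells (1794 cells) and 6.23 CPM in interferon-responsive cells (1140 cells), against 0.821 CPM in the 23096 unnamed cells that made up most of each library. The first exceeded the last in 6 of 6 libraries and the second in 5 of 6, with 0 CPM in the other.

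**Figure D3:**
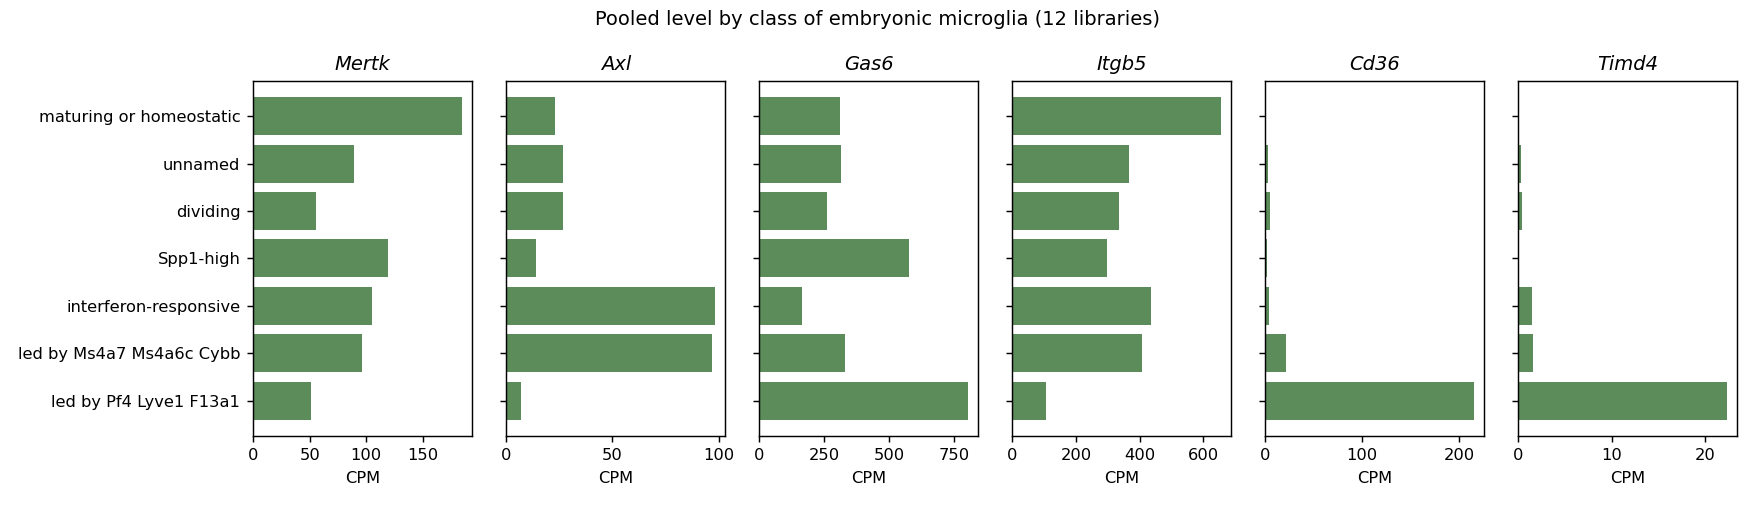
Pooled level of 6 genes, in CPM, by class of embryonic microglia (12 libraries; bars are levels over all cells of a class). Mertk and Itgb5 were highest in homeostatic cells, Axl in interferon-responsive cells and the Ms4a7 cluster, and Cd36 and Timd4 in the Pf4 cluster of 165 cells.

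To ask whether MIA altered clearance genes in microglia, MIA was compared with saline within each stage. None of the 10 genes passed at E13.5 (9 tested), E15.5 (9 tested) or P14 (8 tested), and neither did the difference between the responses at E15.5 and E13.5 (10 tested). The same held for all genes in edgeR's test: 0% of 12284, 13081, 12847 and 13411 genes passed, while 105, 67, 483 and 50 had an unadjusted p under 0.05. DESeq2 called 2, 0, 1 and 0 genes, and edgeR with the replicate number as a block called 2, 0, 0 and 0, none of them among the 10. Tyro3 was too low to be tested in the embryo, and Cd36 and Timd4 at P14. The estimates were of the size of their errors or smaller for Mertk and Axl. Mertk changed by 0.00 (SE 0.12) at E13.5, 0.21 (SE 0.38) at E15.5 and -0.04 (SE 0.09) at P14, and Axl by 0.18 (SE 0.25), -0.04 (SE 0.26) and 0.01 (SE 0.38). The P14 estimate of Axl rests on 245 UMIs in 6 libraries. Gas6 differed by 0.01 (SE 0.14), 0.06 (SE 0.21) and -0.15 (SE 0.10) and Pros1 by -0.06 (SE 0.13), -0.05 (SE 0.19) and -0.08 (SE 0.09). Cd36 had the largest estimate, 0.76 (SE 0.71, adjusted p = 1.00), at E13.5, where its values overlapped between treatments, and it was -0.27 without E13.5 MIA replicate 1. That fit kept saline replicate 1, the saline library with the most Cd36. Each E13.5 MIA library held more Cd36 than the saline library of the same replicate number. The fit with that number as a block is given below, and Cd36 did not pass in it.

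Of the 8 genes tested at P14, Mfge8, Itgav and Pros1 had treatments that did not overlap, as did 11.4% of the 12847 genes tested. None of the 9 tested at E13.5 or at E15.5 did (3.94% and 3.49% of genes). Mfge8 stood at 14.6, 14.1, 17.5 and 17.5 CPM after saline and at 17.8 and 20.2 CPM after MIA, a log2 difference of 0.28 (SE 0.11, unadjusted p = 0.0319, adjusted p = 0.921). Itgav stood at 110, 112, 109 and 112 CPM after saline and at 103 and 103 CPM after MIA, a difference of -0.08 (SE 0.07, adjusted p = 0.921). Pros1 stood between 224.6 and 254.5 CPM after saline and at 211.3 and 224.4 CPM after MIA, with the nearest libraries almost level (-0.08, SE 0.09, adjusted p = 0.921). With 0% of genes called at P14, none of these is a call.

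**Figure D4:**
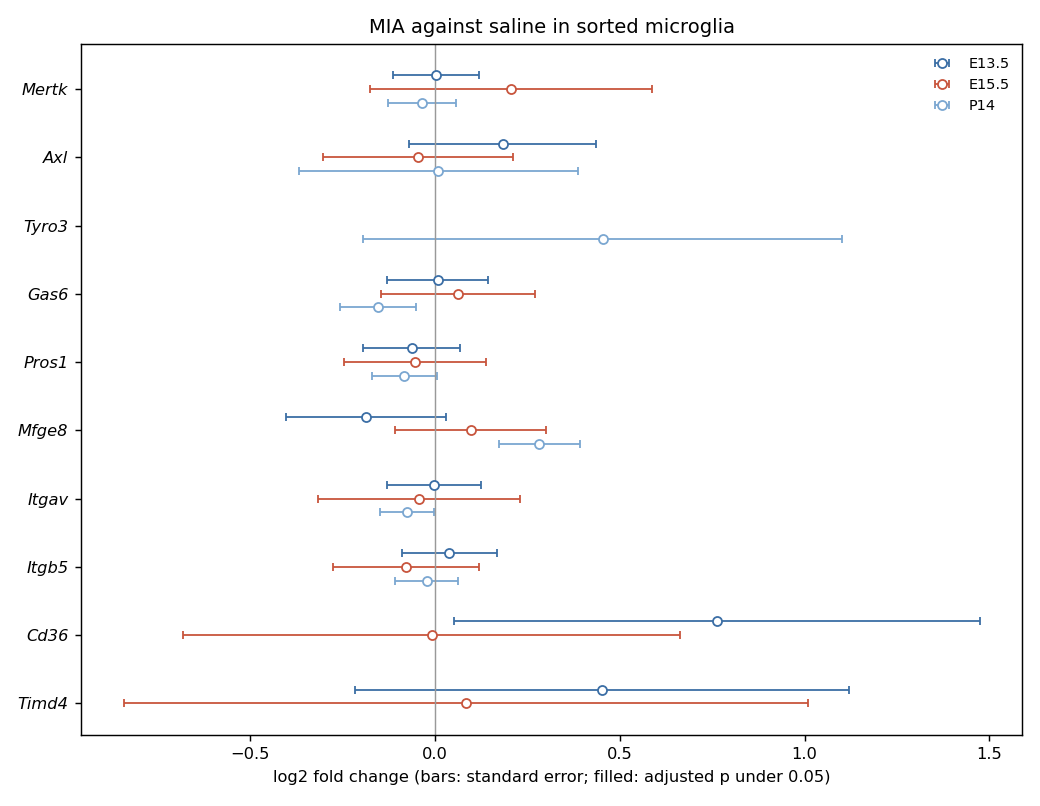
Log2 fold change after MIA against saline in microglia at E13.5, E15.5 and P14 (points with SE; filled points would have an adjusted p under 0.05). All points are open, and genes too low to be tested at a stage have none there.

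Around these 10 genes stood 6 lists of 76 genes of the same process, of which 69 were tested between stages, and a list of 10 interferon-response genes set beside Axl. After MIA 0 list genes passed at each stage, as for all genes. From E13.5 to E15.5 in saline microglia, 16 of the 69 rose and 4 fell, where 13.6% of all genes rose and 10.9% fell. Among them, Atp8a2, a flippase that keeps phosphatidylserine inside, rose from 8.68 ± 1.84 to 24.8 ± 9.85 CPM (SD, n = 3 each; log2 1.51, adjusted p = 0.000507). Itgam, the αM integrin subunit of complement receptor 3, rose from 161 ± 10.8 to 326 ± 87.6 CPM (n = 3 each; log2 1.01, adjusted p = 0.000795). Npc2, which moves cholesterol out of lysosomes, rose from 584 ± 23.9 to 1054 ± 134 CPM (n = 3 each; log2 0.85, adjusted p = 0.001). Cd47, the "do not eat me" signal, rose by 0.56 (adjusted p = 0.00171) and Wasf2, a regulator of actin, by 0.56 (adjusted p = 0.00231). Ifit2, of the interferon list, rose by 2.48 (adjusted p = 0.00212).

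From E15.5 to P14 in saline microglia, 21 of the 69 rose and 23 fell, where 24.6% of all genes rose and 26.1% fell. Anxa5, which binds phosphatidylserine, fell from 80.0 ± 27.6 CPM (SD, n = 3) to 7.49 ± 1.25 (n = 4; log2 -3.68, adjusted p = 3.28e-08). Elmo1, part of the engulfment machinery downstream of phosphatidylserine receptors, rose from 128 ± 32.6 CPM (n = 3) to 497 ± 24.6 (n = 4; log2 1.71, adjusted p = 5.27e-07), while Rac2 fell by 1.51 (adjusted p = 2.64e-06). Cd14 rose by 1.81 (adjusted p = 5.63e-06), Cd300lf fell by 1.70 (adjusted p = 1.70e-07), and Cd24a, a ligand of an inhibitory sialic acid receptor, was at 8.87 ± 5.16 CPM (n = 3) at E15.5 and at 0.0459 ± 0.0534 CPM (n = 4) at P14. Cd24a was also a leading gene of a neuron cluster that was left out, and the 6 neuron markers in the counted microglia summed to between 24.9 and 217 CPM at E15.5 and between 7.27 and 17.3 CPM at P14. Their part in the difference was not tested. In MIA microglia 21 of the 69 rose and 7 fell at the earlier step (15.1% and 14.6% of all genes), and 17 rose and 17 fell at the later one (17.7% and 18.6%). Of 16 engulfment genes tested in saline microglia, 2 rose and 2 fell at the earlier step, and 5 rose and 4 fell at the later one, with medians of 0.02 and 0.03 against 0.04 and 0.02 over all genes. The counts of these 16 engulfment genes lay near the shares of all genes in saline microglia. Those were 13.6% higher and 10.9% lower at the earlier step and 24.6% higher and 26.1% lower at the later one.

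Axl was set beside 10 interferon-response genes. In saline microglia 7 of these rose from E13.5 to E15.5 (median log2 1.88, where 13.6% of all genes rose), when Axl differed by -0.61 without passing in the fit without a block. In MIA microglia, where Axl fell, 2 rose (median 0.81), against 15.1% of all genes. The summed level of the 10 went from 461, 304 and 329 CPM to 352, 748 and 388 CPM in the saline libraries, the 748 CPM standing in E15.5 saline replicate 2, and from 542, 578 and 385 CPM to 538, 446 and 377 CPM in the MIA libraries. E13.5 MIA replicates 1 and 2 had the highest sums of that stage and also the most Axl. At E15.5 the orders differed. MIA replicate 1 had a sum of 538 CPM and the least Axl, 17.1 CPM, and MIA replicate 2 had 446 CPM and the most Axl, 32.3 CPM. Saline replicate 2, with the highest sum, held 32.1 CPM of Axl. From E15.5 to P14, where Axl fell, 9 of the 10 fell in each treatment (medians -2.08 and -1.92), where 26.1% of all genes fell in saline and 18.6% in MIA microglia.

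By likeness of log2 CPM over the 18 libraries, among 14101 genes, Mertk was closest to Zbtb4, Zcchc7 and Qk (Pearson's r = 0.992, 0.991 and 0.99) and Axl to Cybb, Ifi207 and Myo5a (0.992, 0.991 and 0.991). Gas6 was closest to Pwwp2b, Atp6v1b2 and Pfkl (0.968, 0.967 and 0.966), Pros1 to Rapgef5, Col27a1 and Itgam (0.982, 0.978 and 0.978), and Mfge8 to Ttc9, 1810021B22Rik and Btd (0.97, 0.964 and 0.963). For Itgav these were Spred1, Ski and Extl3 (0.984, 0.983 and 0.981), and for Itgb5 P2rx7, Wdr44 and Jmy (0.987, 0.983 and 0.982). Cd36 lay nearest to Gpr65, Mcm7 and 1700048O20Rik (0.974, 0.973 and 0.97), and Timd4 to Rara, Cd36 and Ms4a6c (0.967, 0.961 and 0.959). Tyro3 had no close match, with Lmf2, Spin4 and Uxs1 at 0.754, 0.714 and 0.674. These values describe likeness in course over the stages and carry no test.

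In nuclei of the E15.5 cortex, transcripts of the ligands were found outside of microglia as well. The 8 libraries held 41539 nuclei, with 1469 to 2954 UMIs per nucleus at the median, and replicate 1 and replicate 2 differed in the Cell Ranger version in the file headers (3.1.0 and 6.0.1) and in the barcodes listed. Csf1r, the deleted gene, checks the genotype. Over all nuclei it stood at 1.91 and 0.982 CPM in the wild-type saline libraries, at 1.34 and 0 CPM in the wild-type MIA libraries, at 0.296 and 1.10 CPM in the Csf1r-null saline libraries and at 0.143 and 0.0980 CPM in the Csf1r-null MIA libraries (replicates 1 and 2). The 31 microglial nuclei numbered 9, 6, 9 and 7 in wild-type saline replicates 1 and 2, wild-type MIA replicate 1 and Csf1r-null saline replicate 2. None was found in the others. By both measures wild-type MIA replicate 2 and Csf1r-null saline replicate 2 went against their genotype labels, and the comparisons between groups that are named for nuclei are also given without both.

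Each gene was compared between the cell type with the highest level and the next, among types with at least 10 nuclei in each of at least 6 libraries, so the pair was picked from these values. Microglia and pericytes had too few nuclei to enter. Mfge8 was highest in progenitors. In apical progenitors, the stem cells that line the ventricle, it was at 325 ± 59.5 CPM (SD, n = 8 libraries), against 50.8 ± 8.25 CPM in intermediate progenitors, their neurogenic daughters, a mean log2 difference of 2.65 in favor of apical progenitors in 8 of 8 libraries (exact sign-flip permutation test, two-sided, p = 0.00781, adjusted over 8 genes p = 0.0208). This p is the smallest that 8 libraries allow. Its integrin partner Itgav showed the same order, with 51.2 ± 9.86 against 21.8 ± 4.97 CPM (log2 1.20, 8 of 8 libraries, same p). Axl was also higher in apical than in intermediate progenitors, at 20.9 ± 7.76 against 8.56 ± 5.18 CPM (log2 1.26, 8 of 8 libraries, same p), and neurons had hardly any, at 0.0516 to 0.973 CPM in the migrating and projection neurons. Tyro3 was at 30.9 ± 8.65 and 23.5 ± 6.11 CPM in these progenitors and did not pass (log2 0.38, 6 of 8 libraries, exact permutation adjusted p = 0.05). Projection neurons of each type had Tyro3 at 4.40 to 7.58 CPM.

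Among these types Gas6 was highest in Cajal-Retzius cells, the earliest neurons of the marginal zone. It stood at 208, 190, 127 and 56.0 CPM in replicate 1 of wild-type saline, wild-type MIA, Csf1r-null saline and Csf1r-null MIA, and at 152, 140, 215 and 42.1 CPM in replicate 2. The 137 nuclei held 72 Gas6 UMIs. The next level was in corticothalamic projection neurons, at 4.94 ± 0.943 CPM (SD, n = 7 libraries), where Cajal-Retzius cells held 132 ± 64.1 CPM, a log2 difference of 4.30 in 7 of 7 libraries (exact permutation p = 0.0156, the smallest that 7 libraries allow, adjusted p = 0.0312). With any 1 of these 7 libraries left out, the log2 difference lay between 4.07 and 4.56, the 4.07 against interneurons as the next type. The adjusted p was then between 0.05 and 0.0625, where 6 libraries allow no exact permutation p under 0.0312. Both Csf1r-null MIA libraries were the lowest, but Cajal-Retzius nuclei were too few (9 to 25 per library) for a test between groups. Microglial nuclei held 202 CPM of Gas6, from 11 UMIs.

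Pros1 was low throughout, at 3.66 ± 1.68 CPM in apical and 4.32 ± 2.85 CPM in intermediate progenitors, with no order that passed (exact permutation adjusted p = 0.516, n = 8). It was higher in 56 pericyte nuclei (80.1 CPM, 11 UMIs) and in the 31 microglial nuclei (91.8 CPM, 5 UMIs). The pericyte nuclei also held Mfge8 (321 CPM, 44 UMIs), Itgav (211 CPM, 29 UMIs) and Axl (109 CPM, 15 UMIs). Of 47 Mertk UMIs in all nuclei, 23 were in the 31 microglial nuclei (422 CPM), 18 of them in the 9 nuclei of wild-type saline replicate 1, and 17 in 4592 apical progenitors (1.93 CPM). Itgb5 was at 184 CPM in microglial nuclei, from 10 UMIs, and at 5.33 CPM in apical progenitors. Over 7 libraries apical progenitors held 4.96 ± 6.64 CPM, from 39 UMIs, and the next type, ventral neurons, 4.55 ± 12.03 CPM, from 1 UMI, an order that did not pass (log2 1.30, exact permutation adjusted p = 0.321). Without wild-type saline replicate 2 the next type was intermediate progenitors and the difference passed (1.91, exact permutation adjusted p = 0.0312). No UMI of Cd36 or Timd4 was found among the 41539 nuclei.

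**Figure D5:**
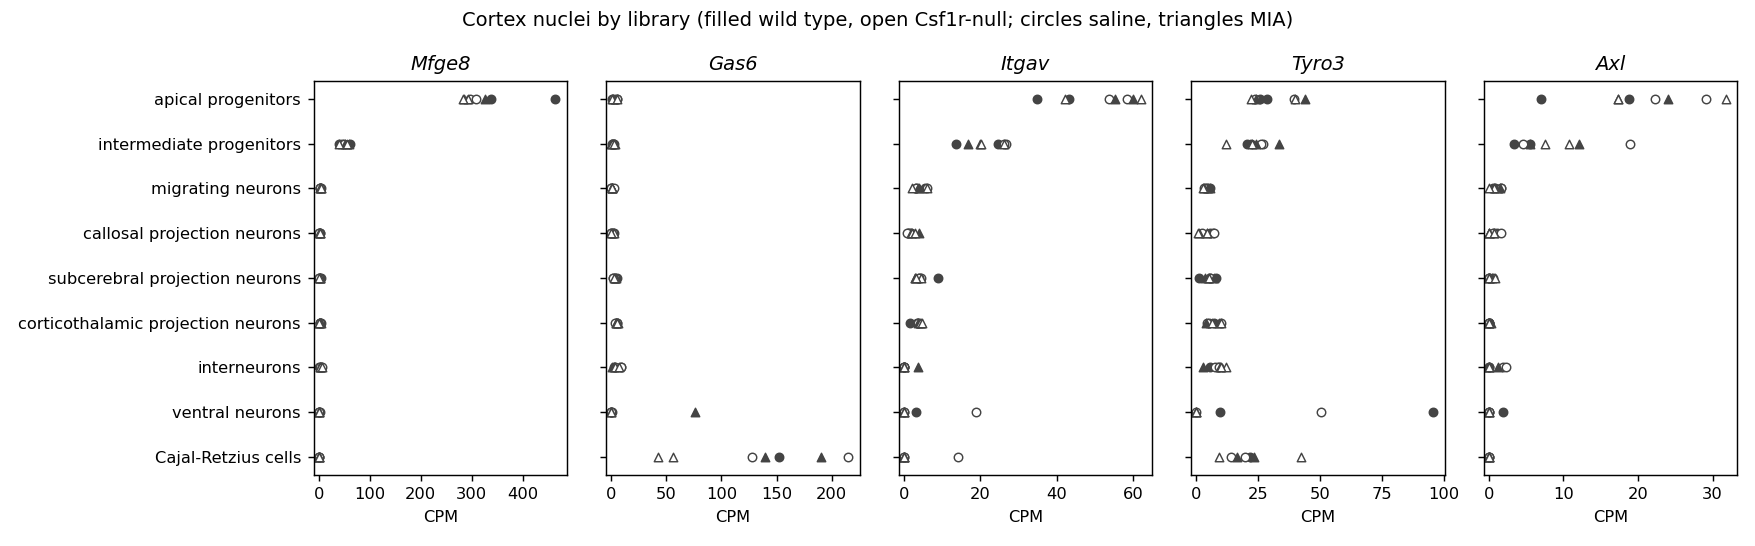
Level of 5 genes, in CPM, in nuclei by cell type (1 point per library with at least 10 nuclei of the type; filled wild type, open Csf1r-null; circles saline, triangles MIA). Mfge8, Itgav and Axl were higher in apical than in intermediate progenitors in 8 of 8 libraries, and Gas6 was higher in Cajal-Retzius cells than in corticothalamic neurons in 7 of 7. Scattered points of ventral neurons come from libraries with few such nuclei.

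None of the 10 genes passed after MIA in nuclei. Over 7 cell types (apical and intermediate progenitors, migrating, callosal, subcerebral and corticothalamic neurons and interneurons), 0 of 70943 tests of a gene in a cell type passed in wild-type nuclei (0%), 0 in Csf1r-null nuclei (0%) and 0 for the difference between the responses (0%) in edgeR's test, with 3715, 908 and 1794 at an unadjusted p under 0.05. With the replicate number as a block, which goes with the software version, 369, 1 and 3 passed, and DESeq2 called 55, 0 and 0, with none of the 10 among them. Those that could be tested were Mfge8, Itgav, Axl and Tyro3 in apical progenitors, Mfge8, Itgav and Tyro3 in intermediate progenitors and migrating neurons, Tyro3 in subcerebral neurons, and Tyro3 and Gas6 in corticothalamic neurons.

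Mfge8 came nearest. In apical progenitors it held 464 and 338 CPM in wild-type saline, 325 and 286 CPM in wild-type MIA, 298 and 309 CPM in Csf1r-null saline and 294 and 283 CPM in Csf1r-null MIA libraries (replicates 1 and 2). Both wild-type MIA libraries lay below both wild-type saline libraries, and 44.3% of the genes tested in these cells had treatments that did not overlap. Both Csf1r-null MIA libraries likewise lay below both Csf1r-null saline libraries, where 24.5% of the genes did not overlap. The log2 change was -0.47 (SE 0.19, unadjusted p = 0.0289, adjusted p = 0.501) in wild-type and -0.09 (SE 0.19, adjusted p = 1.00) in Csf1r-null nuclei, and the difference between them was 0.37 (SE 0.26, adjusted p = 0.999). With the block the wild-type change was -0.46 (adjusted p = 0.124). With both libraries that go against their labels left out, 1 library remained in each of their groups, so only estimates are given. They were -0.40 in wild-type and -0.02 in Csf1r-null nuclei, with a difference of 0.38.

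Over all nuclei, none of the 10 passed between genotypes after saline (7 tested, 0% of 14379 genes called) or after MIA (7 tested, 0% of 14379), with 817 and 52 genes at an unadjusted p under 0.05. DESeq2 called 5 and 0 genes, none of the 10. Mfge8 stood at 60.2 and 36.4 CPM in the wild-type saline and at 26.6 and 32.5 CPM in the Csf1r-null saline libraries (log2 -0.70, SE 0.22, unadjusted p = 0.0123, adjusted p = 0.844). Wild-type saline replicate 1 had the highest value and also 728 of the 858 ventral neurons, in which Mfge8 was at 2.87 CPM, from 5 UMIs, against 37.2 CPM over all nuclei. Gas6 differed by 0.02 (SE 0.34) after saline and -0.34 (SE 0.34) after MIA, and Pros1 by -0.77 (SE 0.60) and -1.14 (SE 0.62). With both libraries that go against their labels left out, 1 library remained in each of their groups, so only estimates are given. Mfge8 then differed by -0.91 after saline, Gas6 by -0.26 and -0.62 and Pros1 by -1.11 and -0.78, so Gas6 after saline changed sign. Without wild-type saline replicate 1, Pros1 differed by 0.05 after saline. Without both libraries that go against their labels Mertk entered the test and was at 1.91 and 0.268 CPM in the wild-type saline libraries and at 0 CPM in the remaining Csf1r-null saline library, a group with no spread of its own.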

How the data were processed

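Sorted microglia (18 libraries) and cortex nuclei (8 libraries) were profiled by droplet 3′ RNA sequencing. The deposited matrices hold raw UMI counts per gene and barcode, made by the authors with Cell Ranger (3.1.0 in the submitters' processing notes and the file headers, except 6.0.1 in the headers of nuclei replicate 2) on mm10. The 10 genes, the lists and the tests were chosen with earlier results of these data known.

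Cells with under 500 genes or over 20% mitochondrial UMIs, and nuclei with under 500 UMIs or 200 genes, were left out, as were doublets by score and the smaller copies of barcodes shared between microglia libraries. Cells were clustered in scanpy 1.11.5 (2000 variable genes, 30 components, Leiden resolution 1) without the 10 genes and the pathway lists, and classes were named from marker lists. Counts were summed per library and tested with edgeR 4.0.16 (TMM, filterByExpr, quasi-likelihood, Benjamini-Hochberg), with DESeq2 1.42.0 as an alternative. Threshold: adjusted p under 0.05. Nuclear levels were compared by exact sign-flip tests on log2(CPM + 1). Named list genes were at most the 6 with the smallest adjusted p per comparison. Each gene's closest 3 genes were ranked by Pearson correlation. The scripts were tested on simulated data. Depth was 6160925 to 105751888 UMIs per microglia library and 9897721 to 17605575 per nuclei library. Intervals and floors cover counting error only.

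Deviations of libraries with the same replicate number were positively correlated at E15.5 (0.596, 0.179 and 0.622) and at E13.5 (0.323, 0.098 and 0.386). At P14 these correlations were 0.33 for replicate 1 and 0.114 for replicate 2. Pairs of saline and MIA libraries with unlike numbers lay between -0.476 and 0.199 at E13.5 and between -0.593 and 0.146 at E15.5. In nuclei (0.495 to 0.68) the replicate number goes with the Cell Ranger version, and what else it marks is not given in the sources used here. The replicate number as a block was an alternative.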

Additional observations from a re-analysis of the deposited data

Results flagged for a closer look

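Timd4 in P14 saline replicate 3M stood apart from the other P14 saline libraries, at 0.0383 CPM against 0 CPM in the 3 others. The value rests on 1 UMI. With 1 UMI against zeros the gap to the others is the whole range by construction, so the value says no more than that 1 UMI was counted. Of the 10 genes examined in this group of 4 libraries, no other stood apart.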

How the results depend on the processing

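The number of the 10 genes called from E13.5 to E15.5 in saline microglia was 3 instead of 5 when all cells past the filter were counted, and 3 without the Ms4a7 or border and dividing clusters. With 1 library left out it ranged from 1 to 5, and was 1 without E13.5 saline replicate 1, E15.5 saline replicate 2 or E15.5 saline replicate 3. In MIA microglia the count ranged from 3 to 6 at that step, the 3 without E15.5 MIA replicate 3, and from 5 to 9 at the later step, the 5 without either P14 MIA library, where the lone library is assumed to vary like the other groups. With the replicate block, 6 genes passed from E13.5 to E15.5 in saline microglia, Axl being added (-0.62, adjusted p = 0.0394), and the block changed no other count of the 10. Over all genes it moved the calls after MIA in wild-type nuclei from 0 to 369. The nuclear difference of Tyro3 passed with a higher minimum of UMIs per nucleus (0.41, adjusted p = 0.0156). That of Gas6 lay between 4.07 and 4.56 with 1 library left out, and that of Itgb5 between 0.79 and 1.91, passing without wild-type saline replicate 2, where the next type was intermediate progenitors in place of ventral neurons. No change that passed in any setting changed direction. Of the estimates that passed in none, 34 of 44 in microglia and 33 of 53 in nuclei changed sign in at least 1 setting. With the block the P14 changes after MIA were 0.02 for Mertk, -0.19 for Axl and 0.06 for Itgb5, and Cd36 at E13.5 was at 0.77 (SE 0.14, unadjusted p = 8.51e-05, adjusted p = 0.149 in edgeR's test). The causes were not tested. Levels under 1 CPM, such as Tyro3 and P14 Cd36, rest on few UMIs, and 2 to 4 libraries a group limit the MIA comparisons.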

Other observations

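UMIs of these genes were also found in clusters that were not counted as microglia. In the embryo, 1074 sorted cells led by Fabp7, Mt3 and Ddah1 held Mfge8 at 85.7 CPM, above the homeostatic microglia of the same library in 9 of 9 libraries. Microglial markers summed to 3024 CPM in these cells, and the part of microglial RNA in their values was not tested. At P14, 188 cells led by Mt3, Slc1a2 and Aldoc held Axl at 21.4 CPM and Tyro3 at 21.4 CPM, against 0.821 CPM and 0.308 CPM in the unnamed microglia. Another 193 cells led by Meg3, Snhg11 and Gria2 held Tyro3 at 58.3 CPM, above those microglia in 5 of 5 libraries.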
